A study of Mus musculus with 2 samples.

Results

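The transcripts described here are unannotated RNAs that StringTie assembled inside introns of chromatin regulator genes in mouse spleen. They were taken from the table of assembled transcripts as those of class code i, which marks a transcript lying within an intron of an annotated gene. The host gene had to carry a symbol starting with 1 of 13 family stems followed by a digit (Kmt, Kdm, Setd, Smarca, Smarcc, Chd, Arid, Brd, Hdac, Ncor, Kat, Tet or Dnmt), or be Ash1l, Ep300 or Crebbp. The rule found 184 transcripts in 51 host genes, of 12603 class i transcripts in 4346 hosts and 16840 assembled transcripts in all. Ash1l and Crebbp each held 2 transcripts and Ep300 held none. Every one of the 184 spans lay within the GENCODE M21 body of its host (build GRCm38), and all 51 hosts were protein-coding genes.

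The study compared spleen cells of mice with collagen-induced arthritis (CIA), in which immunization against type II collagen gives an inflammatory joint disease, with those of healthy controls that received no treatment. Each group had 1 library of total RNA depleted of ribosomal RNA. Both libraries are titled day 40, whereas the treatment label of the CIA library gives sacrifice at day 42. Strain, sex and age of the mice, and the number of mice in a library, are not given in the labels. With 1 library per group there is no replicate error and no test. Each transcript is given by its level in both libraries, in FPKM (fragments per kilobase of transcript per 1000000 fragments), and by its ratio, log2((CIA FPKM + 0.1)/(healthy FPKM + 0.1)). The added 0.1 FPKM understates the ratio of low transcripts. A 2-fold ratio is a size rule for counting only. The lowest value listed, 0.0001 FPKM, is taken to stand in place of 0 and is called the floor. The depth behind the values is unknown, because FPKM keeps no counts.

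Chromatin regulators set how DNA is packed and read. Methyltransferases, demethylases, acetyltransferases and deacetylases write and erase marks on histone tails, bromodomain proteins bind acetylated lysines, remodelling ATPases move nucleosomes, and the DNMT and TET enzymes place and oxidise DNA methylation. Their genes are long and rich in intron sequence. Libraries made by ribosomal RNA depletion also hold unprocessed RNA, so a class i assembly can be an independent noncoding RNA or a stretch of host pre-mRNA. Which of these each transcript is was not tested.

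Promoters of 3 hosts are shown because these hosts are described in detail below. Tet2 and Dnmt3a belong to the DNA methylation genes, and the ratios along Hdac9 are described on either side of its second start. For Dnmt3a, 1 of 3 RefSeq starts is shown. No ratio was set against promoter sequence. Each run covers 250 bases before and 50 bases after a start in RefSeq (GRCm38.p6), 5′ to 3′ on the strand of the gene. Capitals mark GGGCGG on either strand, the core of the GC box.
Tet2, chr3:133544341-133544640, minus strand: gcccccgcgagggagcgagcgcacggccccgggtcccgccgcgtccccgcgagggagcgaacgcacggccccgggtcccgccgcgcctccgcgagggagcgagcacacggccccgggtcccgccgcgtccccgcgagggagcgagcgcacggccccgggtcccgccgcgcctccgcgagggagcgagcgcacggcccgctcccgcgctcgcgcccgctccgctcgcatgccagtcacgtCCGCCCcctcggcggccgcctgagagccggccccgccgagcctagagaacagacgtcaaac
Dnmt3a, chr12:3806730-3807029, plus strand: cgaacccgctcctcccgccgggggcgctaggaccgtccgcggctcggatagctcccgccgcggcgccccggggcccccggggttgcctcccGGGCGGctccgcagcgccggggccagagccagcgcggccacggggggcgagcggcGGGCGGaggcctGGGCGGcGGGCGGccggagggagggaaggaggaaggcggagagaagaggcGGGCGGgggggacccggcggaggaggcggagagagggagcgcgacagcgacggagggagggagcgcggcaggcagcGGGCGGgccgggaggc
Hdac9, upstream start, chr12:34917046-34917345, minus strand: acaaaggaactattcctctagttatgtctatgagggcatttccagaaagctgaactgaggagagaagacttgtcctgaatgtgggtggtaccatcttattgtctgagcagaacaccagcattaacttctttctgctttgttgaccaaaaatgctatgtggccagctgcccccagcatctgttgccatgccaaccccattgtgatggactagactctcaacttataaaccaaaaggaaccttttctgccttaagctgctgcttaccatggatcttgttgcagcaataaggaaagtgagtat
Hdac9, the second start, chr12:34528840-34529139, minus strand: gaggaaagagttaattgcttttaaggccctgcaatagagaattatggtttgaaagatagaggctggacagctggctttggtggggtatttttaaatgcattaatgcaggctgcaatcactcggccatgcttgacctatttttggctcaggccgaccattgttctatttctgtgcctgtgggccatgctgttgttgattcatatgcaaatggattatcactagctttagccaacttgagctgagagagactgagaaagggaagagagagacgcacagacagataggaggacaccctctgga
The Tet2 window held 57 CpG and 1 GC box, and the Dnmt3a window held 46 CpG and 6 GC boxes. Both Hdac9 windows had no GC box, with 0 CpG at the upstream start and 3 at the second. Of the hosts, 37 had a promoter in the table, 52 promoters in all, and 38 of these (73.1%) held GGGCGG on either strand, against 35.7% of all 32851 promoters of the same length. The median CpG number was 29.5 in the host promoters and 7 in all promoters. A match describes letters and not a bound factor.

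Most of these intronic transcripts were somewhat more abundant in the CIA library, and so were most intronic transcripts of other genes. The median over the 51 hosts of the host median ratio was 0.31 (1.24-fold), against 0.20 (1.15-fold) over the other 4295 hosts, a difference of 0.11. The middle 50% of hosts lay between 0.04 and 0.57 for the chromatin regulators and between -0.25 and 0.60 for the others, so the difference in medians is small beside the spread over hosts in either set. The median was above 0 in 39 hosts (76.5%), below 0 in 11 and exactly 0 in Brd1, and it was above 0 in 62.9% of the other hosts. Restricting both sets to transcripts of at least 1000 bases left 38 chromatin regulator hosts with a median of 0.34 and 2258 other hosts with 0.30, which brings the difference down to 0.035. Among hosts with 1 transcript only (21 chromatin regulators) the difference was 0.056.

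At the 2-fold rule, 3 hosts were higher in the CIA library (Setd5, Kdm4d and Hdac8) and 2 lower (Hdac11 and Smarca1). Of the other hosts 11.8% were 2-fold higher and 10.3% 2-fold lower, so 2-fold ratios made up a smaller share of the chromatin regulator hosts. That contrast was smaller among transcripts of at least 1000 bases, where 2 of 38 hosts were higher and 0 lower. Of other hosts, 6.78% and 1.51% were so there. Counted by transcript, 13 of 184 (7.07%) were 2-fold higher and 5 (2.72%) 2-fold lower, against 15.7% and 10.4% of other class i transcripts. A ratio above 0 was found in 144 of 184 transcripts, 78.3%, and in 63.3% of the others. The median ratio of the other class i transcripts was 0.24 (1.18-fold), a shift between the libraries over class i RNA as a whole. Relative to that shift, 29 of 51 hosts (56.9%) lay above and 47.3% of other hosts did. By transcript, 108 of 184 (58.7%) lay above it, against 50% of other class i transcripts. After the shift was subtracted, 9 transcripts were 2-fold higher and 8 lower. At this setting 2 hosts were 2-fold higher and 2 lower, against 8.43% and 12.9% of other hosts.

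**Figure D1:**
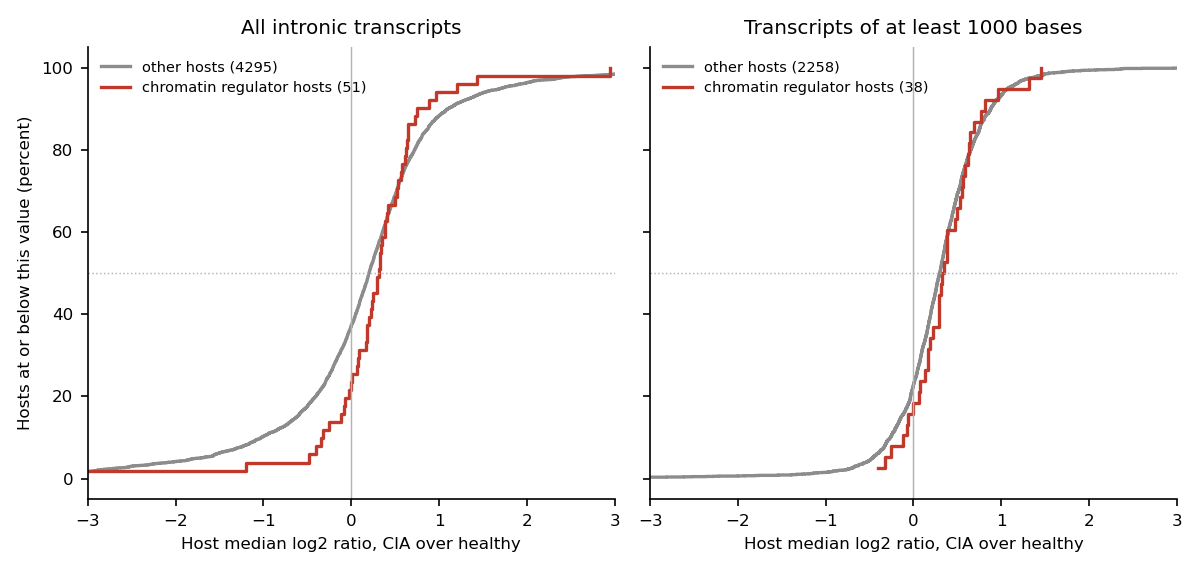
Cumulative share of hosts (vertical axis, percent) at or below each host median log2 ratio (horizontal axis, CIA over healthy, drawn from -3 to 3), for the 51 chromatin regulator hosts and the 4295 other hosts on the left, and for transcripts of at least 1000 bases on the right (38 and 2258 hosts). The chromatin regulator line is steeper on the left, with few hosts far below 0, and lies close to the line of other hosts on the right.

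The transcripts differed from other class i transcripts in form. Their median length was 1579.5 bases against 775, and 62.5% against 42.8% reached 1000 bases. Their hosts were longer genes, with a median of 83.7 kb against 56.1 kb, and held a median of 2 class i transcripts against 1. A single exon was found in 158 (85.9%), against 92.9% of the others. No strand was assigned to 110 (59.8%, against 75.3%). The remainder comprised 34 on the strand of the host and 40 on the opposite strand, or 18.5% and 21.7%, against 12.5% and 12.2% of the others. No strand setting is stated, so reads of an opposite-strand transcript cannot be told apart from reads of its host. The median distance to the nearest exon of the host was 2193 bases, against 3235.

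Their levels were also higher in both libraries. The median was 3.44 FPKM in CIA spleen against 2.61 FPKM in healthy spleen, against 2.28 and 2.0 FPKM for other class i transcripts, and 91.3% against 77.3% reached 1 FPKM in both. Ratios became less scattered with level: the 36 transcripts with a mean of at most 2 FPKM held 7 of the 13 that were 2-fold higher and all 5 that were 2-fold lower. Above a mean of 5 FPKM the medians of the 37 chromatin regulator transcripts and of the others were both 0.29. Among transcripts of at most 500 bases the median was 0.22 for 32 chromatin regulator transcripts and -0.04 for the others, while above 3000 bases it was 0.44 (59 transcripts) and 0.36. Between 500 and 1000 bases the order was the other way, at 0.18 (37 transcripts) and 0.24. The difference between the sets therefore varied with transcript length, and it was widest in the shortest band.

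**Figure D2:**
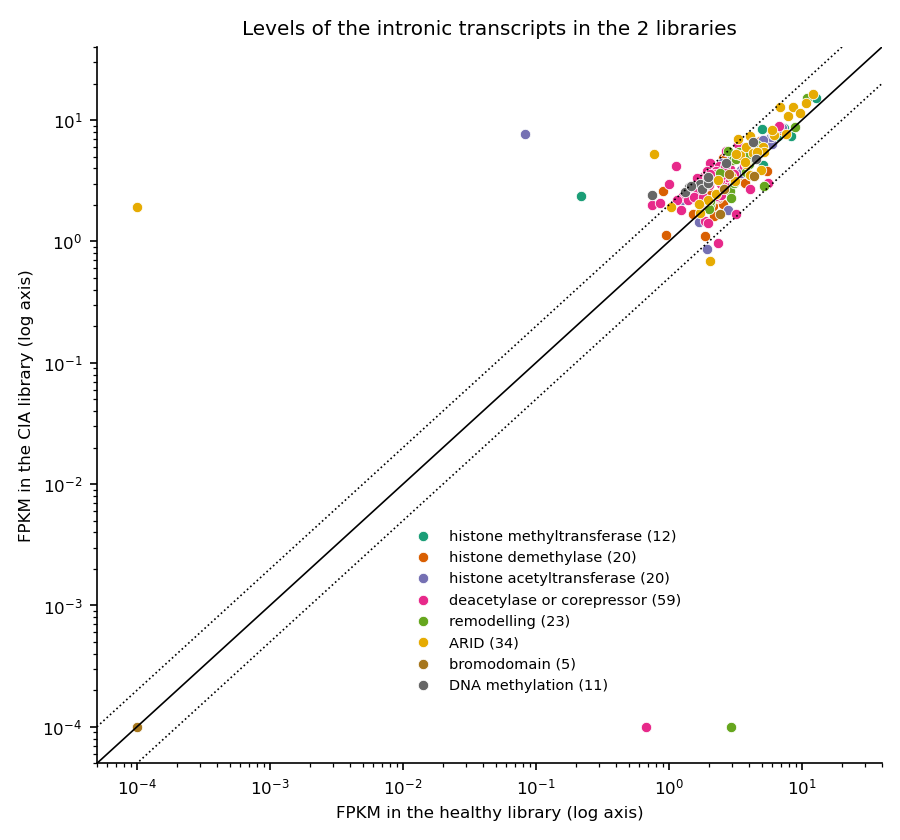
FPKM of the 184 intronic transcripts in the CIA library (vertical, log axis) against the healthy library (horizontal, log axis), coloured by the role of the host. The solid line marks equal levels and the dotted lines a 2-fold difference, and most points lie between 1 and 10 FPKM, slightly above the solid line. Points at 0.0001 FPKM are listed at the floor.

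The DNA methylation genes had the highest median over hosts of the 8 roles, 0.68. All 11 of their transcripts, in 4 hosts, were higher in the CIA library, 10 of them by more than the common shift. Among other class i transcripts 63.3% were higher and 50% lay above that shift. The 4 host medians ran from 0.58 to 0.88. The median level of the 11 transcripts was 2.97 FPKM in CIA spleen against 1.79 FPKM in healthy spleen. Tet2, whose enzyme oxidises 5-methylcytosine and whose promoter is shown above, held 5 transcripts. The one nearest its 3′ end among the 5 (MSTRG.25209.1, chr3:133488928-133489710) was at 2.43 FPKM in CIA spleen against 0.748 FPKM in healthy spleen, a log2 ratio of 1.58. The others of Tet2 stood at 2.53 against 1.33, 2.85 against 1.45, 3.0 against 1.98 and 3.39 against 1.95 FPKM, CIA before healthy. All 5 were therefore higher in the CIA library, over log2 ratios of 0.58 to 1.58, although the 5 share the RNA of 1 gene and are not independent.

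Dnmt3a, a de novo DNA methyltransferase, held 4 transcripts with CIA and healthy levels of 2.97 and 1.71, 4.74 and 4.52, 2.79 and 1.41, and 4.41 and 2.69 FPKM. The 337-base transcript at 4.74 FPKM was nearly level between libraries, at a log2 ratio of 0.06, and the other 3 ranged from 0.69 to 0.94. The last of the 4, on the strand opposite to Dnmt3a, also overlaps an annotated exon within its span. Dnmt3b, the related de novo enzyme, had 1 transcript at 2.72 against 1.79 FPKM (0.58). Tet3 had 1 at 6.63 against 4.27 FPKM (0.62). All transcripts of these 3 genes were thus higher in the CIA library.

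Deacetylases and corepressors held the most transcripts, 59 in 7 hosts, with a median over hosts of 0.53. In the CIA library 50 of the 59 were higher and 9 lower, among them 6 2-fold higher and 2 2-fold lower. Of other class i transcripts 63.3% were higher, 15.7% 2-fold higher and 10.4% 2-fold lower. Above the common shift lay 43 of the 59 transcripts and 6 of the 7 hosts, against 50% and 47.3% of the others. Hdac8, a class I deacetylase gene on the X chromosome, held a transcript at 4.45 against 2.03 FPKM and another at 2.0 against 0.745 FPKM, CIA before healthy, with log2 ratios of 1.10 and 1.31. The former spans chrX:102388770-102389120 and the latter chrX:102441046-102444271. Hdac7, a class IIa deacetylase known for its role in developing thymocytes, held 2 transcripts at 5.57 against 2.69 and 6.31 against 3.32 FPKM, with a host median of 0.97. Both Hdac7 transcripts are over 3000 bases long and lie next to each other between chr15:97816730 and 97825211, just under and just over the 2-fold line.

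Hdac4, another class IIa gene, held 12 transcripts with log2 ratios from -0.88 to 1.5 around a median of 0.39. Its lowest transcript (chr1:91957636-91957880, 245 bases) stood at 1.69 against 3.19 FPKM, and its highest was a 492-base transcript at 2.99 against 0.993 FPKM, CIA before healthy. Hdac11, the only class IV deacetylase, was the exception among the deacetylases, since its 1 transcript was lower in the CIA library, at 0.970 against 2.36 FPKM (-1.20).

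Hdac9, a class IIa deacetylase gene of 869.5 kb on the minus strand of chromosome 12, held 31 intronic transcripts, the most of any host here. The median ratio was 0.53, from median levels of 3.30 FPKM in CIA spleen against 2.31 FPKM in healthy spleen. RefSeq gives Hdac9 a second start 388.2 kb downstream of the upstream one, and both promoter windows are printed above. The 10 transcripts downstream of the second start had a median of 0.81 (0.35 to 1.79), at median levels of 3.23 FPKM in CIA spleen against 1.83 FPKM in healthy spleen. The 21 upstream of it had a median of 0.39, at 3.30 and 2.50 FPKM. The CIA levels of the 2 stretches were thus alike and the healthy levels differed. This split was chosen after the values were seen.

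All 10 downstream transcripts of Hdac9 were higher in the CIA library. The highest was a 1143-base transcript (MSTRG.8006.1, chr12:34442448-34443590) at 4.18 FPKM in CIA spleen against 1.13 FPKM in healthy spleen. The longest of all 184 transcripts also lay downstream, 28426 bases at chr12:34481356-34509781, with 4.17 against 2.39 FPKM (0.78). Upstream, 17 of 21 were higher. Lower ones in the CIA library were 3 short transcripts, of 345, 757 and 639 bases, at 3.04 against 5.52, 3.5 against 4.09 and 2.73 against 4.09 FPKM. One more was at 0.676 FPKM in healthy spleen and was floored with arthritis. The span of that one overlaps another assembled transcript (MSTRG.8023.1), and the 2 summed to 3.44 against 2.70 FPKM (0.34), above 0.

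**Figure D3:**
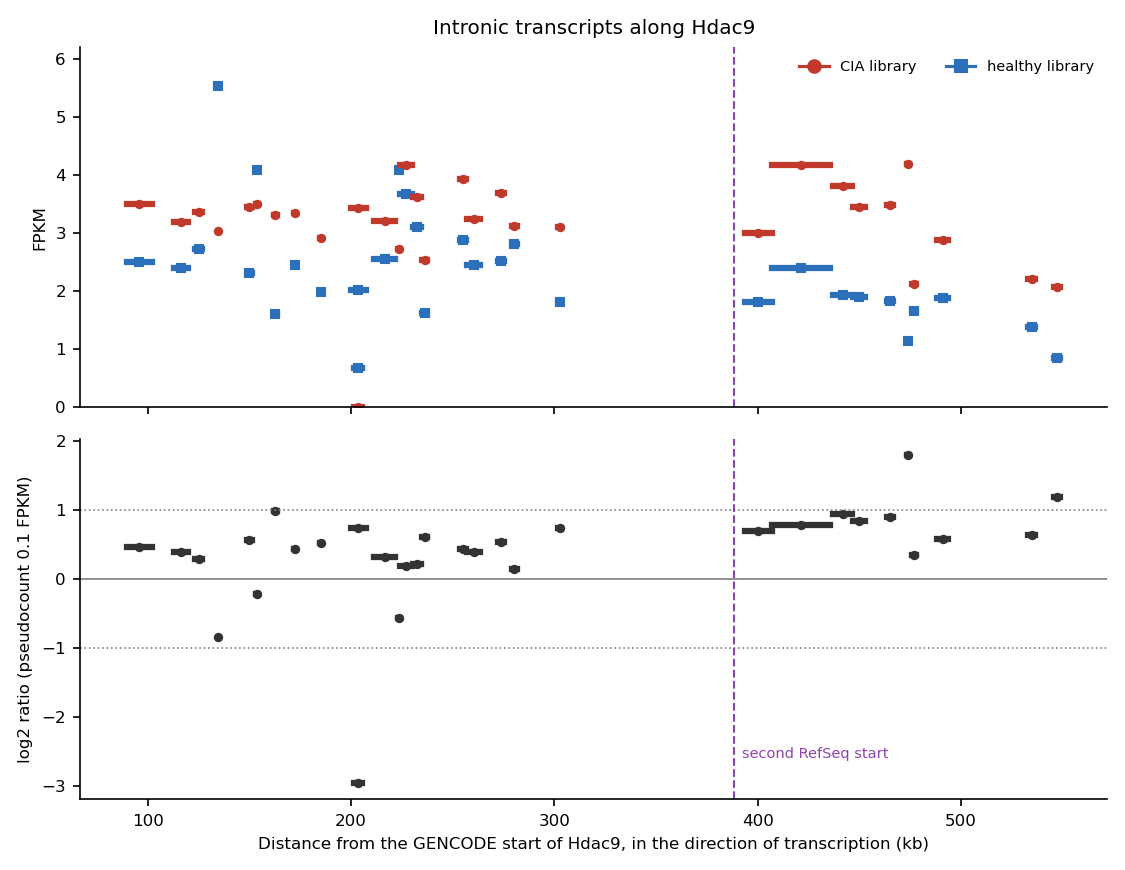
Intronic transcripts along Hdac9 by distance from the GENCODE start in kb, with FPKM in each library above and the log2 ratio below. Bars show the span of each transcript and the dashed line the second RefSeq start at 388.2 kb, to the right of which all 10 ratios lie above 0. The transcript near -3 is the one floored in CIA spleen.

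ARID genes encode DNA-binding subunits of remodelling and corepressor complexes. The medians of the 7 hosts ran from 0.01 to 0.63, with 4 above the common shift, against 47.3% of other hosts. In the CIA library 31 of the 34 transcripts were higher, 20 of them by more than that shift. For other class i transcripts these shares were 63.3% and 50%. Arid1b, a subunit of the BAF remodelling complex, had the highest median, 0.63, and its 5 transcripts stood at 5.15 against 3.44, 12.9 against 8.50, 5.94 against 3.79, 5.22 against 3.19 and 12.9 against 6.85 FPKM. Each of the 5 was thus 0.57 to 0.90 higher on the log2 scale. Arid1a, its paralogue, held 5 transcripts, 4 of them on the opposite strand, and the 2 most abundant were at 16.3 against 12.1 and 13.8 against 10.8 FPKM, CIA before healthy. The former, at chr4:133737146-133744281, was the most abundant of all 184.

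Arid5b, which encodes a DNA-binding partner of a histone demethylase, held 11 transcripts. In 10 of them the log2 ratio ran from 0.01 to 0.84, around a host median of 0.33, with levels from 1.94 to 8.27 FPKM with arthritis and 1.04 to 5.97 FPKM without. The eleventh (MSTRG.3797.2) was at 1.91 FPKM in the CIA library and listed at the floor in the healthy one. It overlaps another isoform, and their sums were 5.07 against 3.13 FPKM (0.68). Arid4b, of the Sin3 corepressor complex, had 1 transcript with a ratio far above the others of the gene: MSTRG.9554.1 (chr13:14091023-14092258, 1236 bases) was at 5.22 against 0.766 FPKM (2.62). The other 2 of Arid4b were close to level, at 7.68 against 7.63 and 7.56 against 6.17 FPKM. Arid3a, which binds immunoglobulin heavy-chain regulatory DNA in B cells, had the lowest median of the group, 0.01, which turned to -0.42 as a mean and to -0.30 by summed FPKM. It held 1 short transcript at 0.689 against 2.02 FPKM and the others at 1.72 against 1.71 and 2.20 against 1.96 FPKM.

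Histone acetyltransferase genes held 20 transcripts in 4 hosts, and 17 of the 20 were higher in the CIA library, with host medians from 0.18 to 0.65. Of other class i transcripts 63.3% were higher. Above the common shift lay 12 of the 20 transcripts and 2 of the 4 hosts, against 50% and 47.3% of the others. Kat6b, a MYST-family enzyme, had the highest median: 6 of its 9 transcripts lay between 0.60 and 0.79, 1 was near level and 2 were lower. The lowest (chr14:21612818-21613476) was at 0.866 against 1.92 FPKM, a log2 ratio of -1.06. Kat6a, its paralogue, held the highest ratio of all members, in a 356-base transcript (MSTRG.35880.1, chr8:22917156-22917511) at 7.62 FPKM in CIA spleen against 0.0832 FPKM in healthy spleen. Its other transcripts stood at 8.57 against 7.13 and 7.66 against 6.11 FPKM, so the ratio of 5.40 belonged to the 356-base transcript alone and the host median was 0.32. Crebbp, the CBP acetyltransferase and coactivator, was nearly level, at 6.69 against 5.73 and 3.89 against 3.5 FPKM, with a host median of 0.18 (-0.061 after the common shift was subtracted).

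Genes grouped by symbol start as histone methyltransferases (Kmt, Setd and Ash1l) were mixed. The grouping follows the symbol and not a shown activity on histones. Of the 7 hosts, 4 lay above 0 and 3 below, with a median over hosts of 0.20. By transcript, 8 of 12 were higher, against 63.3% of other class i transcripts. Only 3 of the 12 transcripts and 3 of the 7 hosts lay above the common shift, against 50% and 47.3% of the others. Setd5, which encodes a SET-domain protein, had the highest ratio of any host. It rested on 1 transcript of 2 exons and 278 bases (MSTRG.32223.1, chr6:113127844-113128188), on the strand opposite to the gene, at 2.35 FPKM in CIA spleen against 0.217 FPKM in healthy spleen, a log2 ratio of 2.95. The span of this transcript overlaps an annotated exon of Setd5. Kmt2a, the MLL1 histone H3 methyltransferase gene, held 1 transcript at 8.46 against 5.00 FPKM (0.75). Kmt2e held 5 that differed little among themselves, over log2 ratios of 0.15 to 0.24, the most abundant at 15.2 against 12.8 FPKM.

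Ash1l, a histone H3 methyltransferase gene of the Trithorax group, and Kmt5a, whose enzyme monomethylates histone H4, lay on the other side of 0. Ash1l held a transcript at 7.35 against 8.30 FPKM and another at 3.33 FPKM in both libraries, with a median of -0.09. The single Kmt5a transcript was at 4.23 against 5.05 FPKM (-0.25). These ratios are small beside those of Setd5 and Kmt2a.

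Demethylase genes likewise went both ways, with 11 of 20 transcripts higher and 9 lower and a median over hosts of 0.32. Of other class i transcripts 63.3% were higher. In this role 9 of the 20 transcripts and 4 of the 7 hosts lay above the common shift, against 50% and 47.3% of the others. Kdm4d, a histone H3 demethylase gene, had 1 transcript of 405 bases (chr9:14495154-14495558) at 2.60 against 0.897 FPKM (1.44), the only 2-fold ratio in this role. Kdm6a, the X-linked UTX demethylase gene, held 2 transcripts that were both lower in the CIA library, at 3.04 against 3.76 and 3.82 against 5.48 FPKM. Kdm5b held 8 between -0.72 and 0.89, of which 5 were lower, at median levels of 1.95 against 2.12 FPKM. The host median of Kdm5b was -0.12, and its ratio was 0.066 by summed FPKM. Kdm5d, on the Y chromosome, held 4 transcripts at median levels of 2.43 against 2.16 FPKM (0.17). Both libraries thus held RNA listed at a Y-linked gene. Besides Ash1l, Kdm6a was the only host with at least 2 transcripts in which all were lower.

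Remodelling genes gave 14 transcripts higher and 9 lower over 10 hosts, with a median over hosts of 0.25. Of other class i transcripts 63.3% were higher. The common shift was passed by 10 of the 23 transcripts and 5 of the 10 hosts, against 50% and 47.3% of the others. Chd9, a chromodomain helicase gene, had the highest median, 0.61, with transcripts at 2.97 against 1.93 and 4.73 against 3.02 FPKM. Chd2 held one of the 5 most abundant transcripts, at 15.2 against 10.9 FPKM (0.48). Chd1 held a transcript of 14043 bases at 4.38 against 3.98 FPKM and one of 280 bases at 2.85 against 5.15 FPKM. The long Chd1 transcript was thus near level and the short one lower, which gave a host median of -0.35. Smarca1, an ISWI-type ATPase gene on the X chromosome, rested on 1 transcript of 290 bases (chrX:47869647-47869936), at 2.93 FPKM in healthy spleen and at the 0.0001 FPKM floor with arthritis. No fold is given for it.

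Bromodomain genes held 1 transcript per host. Brd9 was at 1.68 against 2.40 FPKM (-0.49) and Brd8 at 3.45 against 4.35 FPKM (-0.33). The Brd1 value was the floor on both sides. With 2 hosts above 0 and 2 below, this role showed no common direction.

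**Figure D4:**
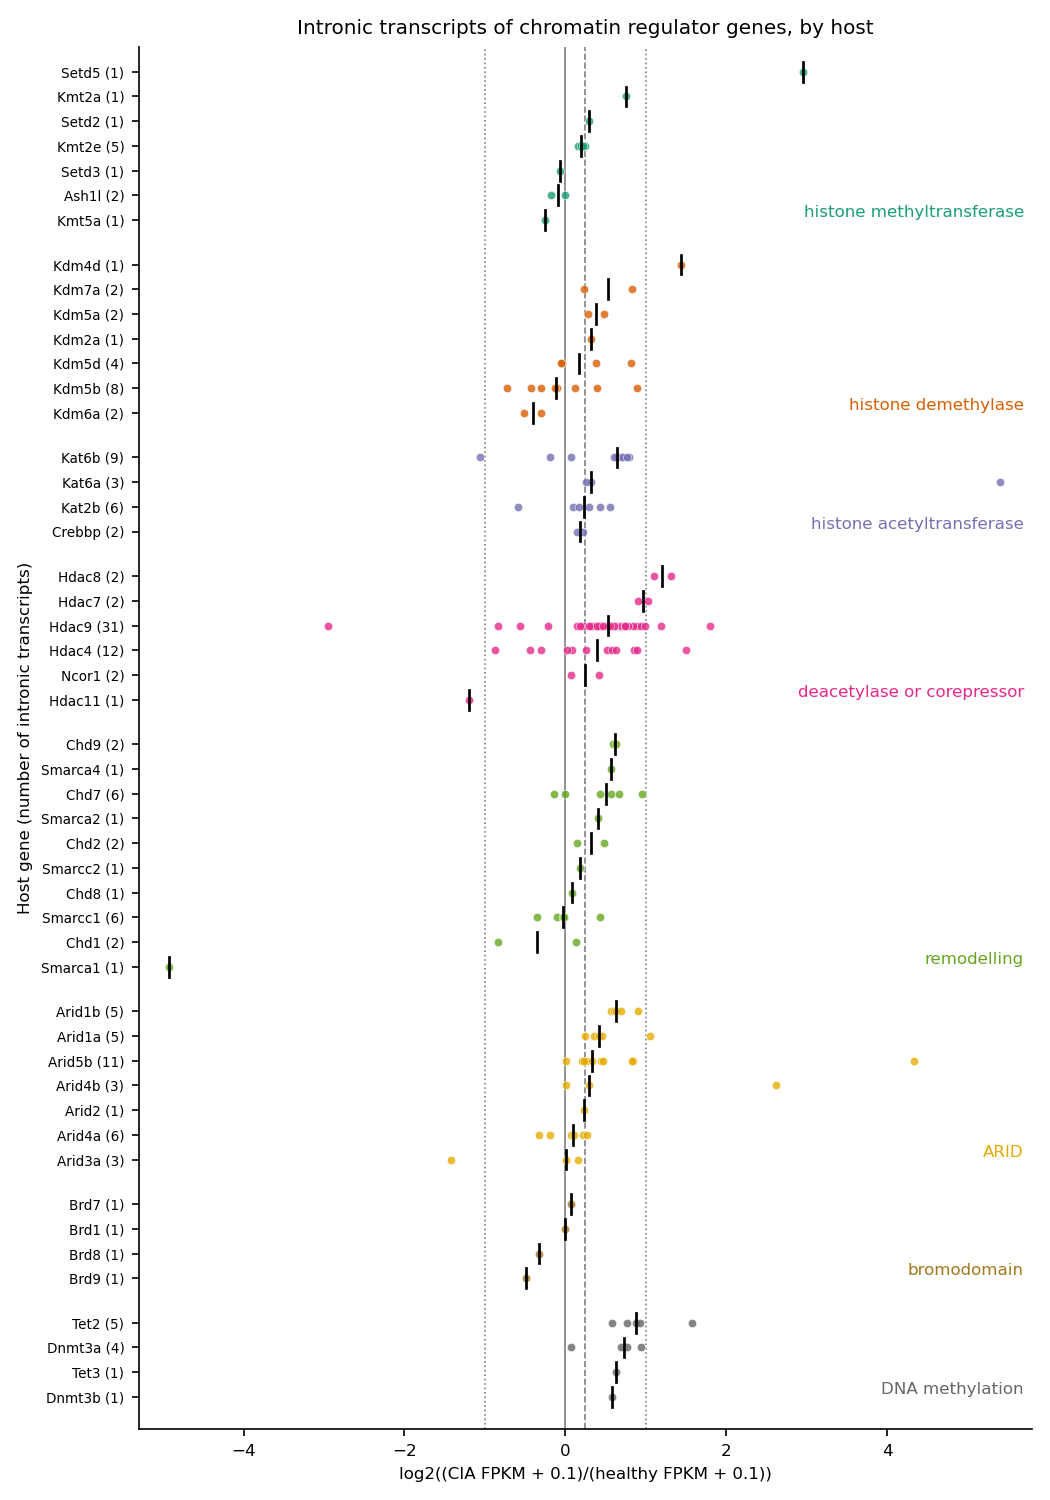
Log2 ratio, CIA over healthy, of each of 174 intronic transcripts (points), for 49 of the 51 hosts by role, with the host median as a black bar and the number of transcripts in brackets. The dashed line marks the shift of 0.24 common to other class i transcripts and the dotted lines 2-fold, and all points of the DNA methylation hosts lie right of 0. The single Smarca1 point and the outermost Hdac9 and Arid5b points are listed at the floor in 1 library, so their positions depend on the pseudocount.

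Transcripts of the same host lay closer together than in other genes. Of the 30 hosts with at least 2 transcripts, all transcripts were higher in the CIA library in 16 (53.3%), against 33.3% of other hosts. All were lower in 2 hosts, against 11.9%. All lay above the common shift in 8 hosts, against 19.6%. Among the 14 hosts with at least 5 transcripts, all were higher in 5 (35.7%), against 18.7% of other hosts of that size. In these 14 the median SD within a host was 0.39, against 0.68 in other hosts of that size, and the host medians had an SD of 0.28 against 0.51. Transcripts of a host share its RNA, and those of the chromatin regulators were longer and more abundant, so these spreads are not from like transcripts. What part length and level have in the narrower spread was not tested.

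The authors' deposited table gives p-values per transcript by a method not stated in the sources used here. A p below 0.05 stands in the authors' deposited table for 3 of the 184 transcripts (1.63%), against 1.11% of other class i transcripts. The authors' deposited table lists Arid4b MSTRG.9554.1 with p = 0.000220, q = 0.00985 and a ratio of 6.81. The authors' deposited table lists Hdac9 MSTRG.8006.1 with p = 0.0120, q = 0.205 and a ratio of 3.69. For Hdac11 MSTRG.31920.1 the authors' deposited table gives p = 0.0450, q = 0.478 and a ratio of 0.411. Only the Arid4b transcript had q below 0.05. The authors' deposited table marks 8 of the 184 as significant (4.35%), against 5.39% of other class i transcripts. With 1 library per group these values carry no error between mice.

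Annotated lncRNAs within the same hosts, from the other deposited table of the same libraries, were also mostly higher in the CIA library. Of 25 such transcripts in 12 hosts, 16 in 11 hosts reached 0.5 FPKM in either library, and 15 of the 16 were above 0. Most annotated transcripts past the same filter were above 0 as well, 2100 of 3068. The median of the 16 was 0.38, against 0.30 over all 3068. At 2-fold, 2 were higher and 0 lower, against 15.7% and 6.13% of all. Gm42763 in Setd2 was at 2.52 against 0.242 FPKM (2.94), whereas the assembled intronic transcript of Setd2 stood at 6.77 against 5.50 FPKM. Gm45643 in Chd9 was at 0.757 against 0.307 FPKM (1.07), and Gm45640 in the same host at 0.979 against 0.876 FPKM (0.14).

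In Tet3, 5430434F05Rik stood at 7.52 against 4.68 FPKM (0.67). Transcripts of B230319C09Rik in the same host stood at 6.89 against 6.19 (0.15) and 2.65 against 1.77 FPKM (0.55). In Kmt2a, Gm48314 stood at 4.34 against 2.86 FPKM. The intronic medians were 0.62 in Tet3 and 0.75 in Kmt2a. Chd2 held both C130083A15Rik, at 9.97 against 6.13 FPKM, and Gm44552, at 4.63 against 5.18 FPKM, the only one of the 16 that was lower. Dnmt3aos, the antisense transcript of Dnmt3a, was at 1.02 against 0.806 FPKM (0.30), while the intronic median of Dnmt3a was 0.73.

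The last 200 bases of the 2 annotated transcripts past 2-fold are shown, because a polyadenylation hexamer near the end is one feature of a finished RNA. The runs follow GENCODE M21 coordinates (GRCm38), 5′ to 3′, and capitals mark AATAAA or ATTAAA.
Gm42763, chr9:110545098-110545297, plus strand: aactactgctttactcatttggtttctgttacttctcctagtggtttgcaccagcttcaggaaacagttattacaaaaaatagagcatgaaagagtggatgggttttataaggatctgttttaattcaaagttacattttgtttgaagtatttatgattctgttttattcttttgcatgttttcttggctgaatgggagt
Gm45643, chr8:90894439-90894638, plus strand: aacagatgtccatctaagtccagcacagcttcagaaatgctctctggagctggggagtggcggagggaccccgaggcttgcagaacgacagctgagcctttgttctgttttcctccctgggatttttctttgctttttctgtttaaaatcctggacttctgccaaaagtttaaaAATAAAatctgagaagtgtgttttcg
Gm42763 held no hexamer in this window and Gm45643 held 1. Of the 16 annotated transcripts, 5 (31.2%) held AATAAA or ATTAAA on the transcript strand, against 38.1% of all 33119 annotated noncoding transcripts of at least that length. Genome sequence of the assembled intronic spans was not used here.

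**Figure D5:**
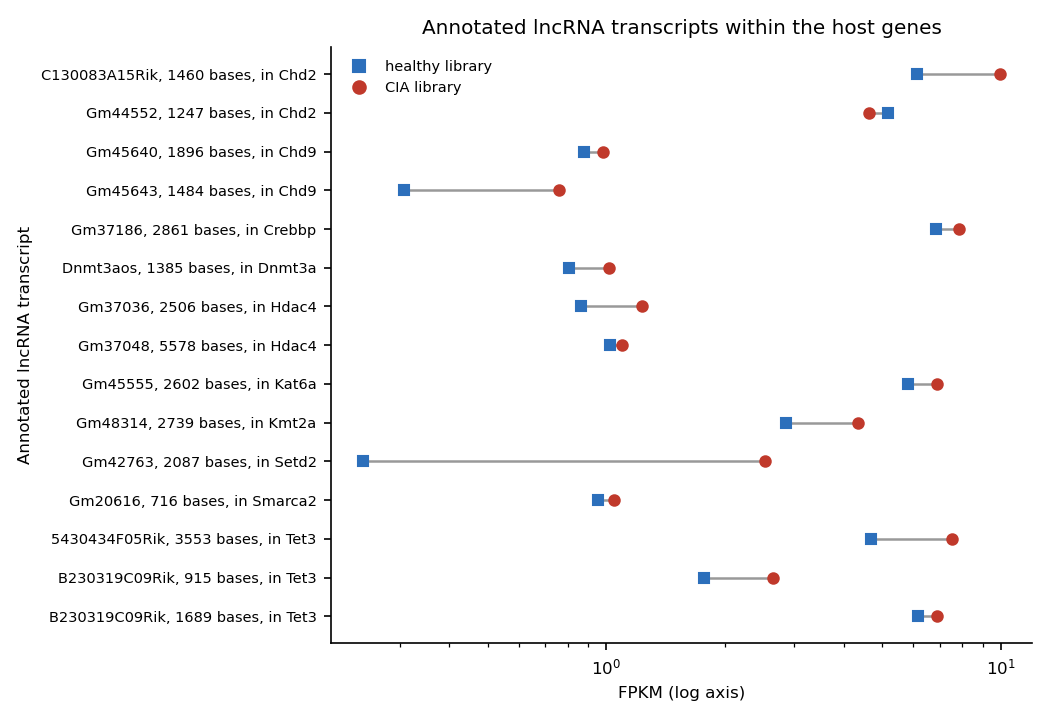
FPKM (horizontal, log axis) of 15 of the 16 annotated lncRNA transcripts within the host genes that reached 0.5 FPKM, in the healthy library (squares) and the CIA library (circles). The CIA point lies to the right in 14 of these 15, furthest for Gm42763 in Setd2.

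Other chromatin genes were described from a list of 143 symbols outside the naming rule, such as Polycomb, SETDB, sirtuin and NCOA genes. Of these, 58 were class i hosts, with 191 transcripts. Their median over hosts was 0.16, against 0.31 in the 51 hosts above, with 36 of 58 above 0, 1 host 2-fold higher and 2 lower. The 1 higher was Smyd5, at 1.98 against 0.455 FPKM. These values lie near those of all other class i hosts (0.20, with 62.9% above 0).

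The median over hosts was 1.43 for T cell and 0.83 for B cell marker genes, against 0.68 in the highest chromatin role. Setd5, Kdm4d, Hdac8 and Hdac7 each had a host median above those of all B cell hosts. In the 4 of 9 listed T cell genes that were hosts (Bcl11b, Cd247, Lef1 and Themis), the host medians ran from 1.05 to 1.51 and the summed level was 132.1 FPKM in CIA spleen against 53.2 FPKM in healthy spleen. In the 3 of 8 B cell genes (Bank1, Ebf1 and Pax5) they ran from 0.72 to 0.91, with sums of 216.2 and 139.3 FPKM. Transcripts of Ebf1 ran from -5.44 to 5.51, with 3 of 9 lower, and those of Pax5 from -4.67 to 1.37, with 1 of 5 lower. All 3 B cell genes held values at the floor. Pecam1, 1 of 4 stromal and endothelial genes, had a median of 1.08, and Prdm1, 1 of 4 plasma cell genes, 0.46. Genes of both lymphocyte classes thus had intronic RNA in both spleen libraries. Ank1, 1 of 5 erythroid genes, was lower, at -0.34. None of the 7 myeloid and 4 proliferation genes was a class i host, so those classes had no value here. In bulk spleen, a change in the share of a cell type and a change in RNA per cell cannot be told apart, and the part of cell makeup in the ratios of the chromatin regulator introns was not tested.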

How the data were processed

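Spleen RNA was sequenced in 1 CIA and 1 healthy library, from total RNA extracted with TRIzol and depleted with Ribo-Zero, per the labels' protocols. The submitters' processing notes name StringTie. Aligner, annotation, strand setting and the authors' test are not stated in the sources at hand. All class i spans with a host of that name in GENCODE M21 were placed in it, and 12577 of 12603 lay within it, so GRCm38 is given as the build. The authors deposited FPKM per transcript, per the file headers. The lowest value listed, 0.0001, is read here as standing in place of 0, which the headers do not state. The deposited ratio (fold) equalled CIA over healthy FPKM within a relative tolerance of 0.0001 in 16840 of 16840 assembled transcripts, and the deposited log2 column is its logarithm. Each p-value and q-value is as the authors deposited it and is only quoted. In the table of annotated transcripts, 2 damaged cells were repaired from the authors' ratio.

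From FPKM, log2((CIA + 0.1)/(healthy + 0.1)) was computed per transcript and its median taken per host, with Python 3.11.15, numpy 2.4.6, pandas 2.3.3 and matplotlib 3.10.9. The script was tested on simulated data. Hosts were named by rule: Ash1l, Ep300 and Crebbp, the 8 highest and 8 lowest medians, the 5 with most transcripts, and the highest and lowest of each role. Transcripts named were the 5 highest, 5 lowest and 5 most abundant that reached 1 FPKM in a library, and the longest. Values of 2 of these hosts are left out of the text and enter the counts only. Others, among them Tet3, Kmt2e, Kat6a, Arid1a, Arid4b, Chd2 and the annotated lncRNAs, were named after their values were seen. The members and lists were chosen with earlier results of these data known. Alternatives were other pseudocounts, filters, centring, size rules, host summaries and subsets of hosts.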

Additional observations from a re-analysis of the deposited data

How the results depend on the processing

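The median over the chromatin regulator hosts, its difference from other hosts and the hosts past 2-fold kept their sign under the alternatives run. No paired analysis was possible because there was 1 library a group. With a pseudocount of 1 FPKM, 1 host was 2-fold higher and 1 lower, against 5.49% and 4.91% of other hosts. By transcript, 6 were higher and 1 lower. Hdac11 (-0.77), Hdac8 (0.82) and Kdm4d (0.92) no longer reached 2-fold at this pseudocount. Centring on the other class i transcripts moved the median over hosts to 0.069, put 8 transcripts 2-fold lower and left Hdac8 at 0.96. Among the 19 hosts with at least 3 transcripts, 0 were 2-fold higher and 0 lower, against 7.45% and 3.57% of other hosts of that size. A 1.5-fold rule gave 12 of 51 hosts higher and 2 lower, against 26.1% and 15.9% of other hosts. It gave 59 transcripts higher and 9 lower. A 4-fold rule gave 1 host each way, against 3.70% and 4.17% of other hosts, with 4 transcripts higher and 2 lower. The transcript counts under these alternatives have no share over other class i transcripts beside them. The following subsets were chosen after seeing the data. Above the floor in both libraries, 1 host was 2-fold lower, against 9.16% of other hosts, and 3 transcripts were 2-fold lower. At 1000 bases or more, 2 of 38 hosts were higher and 0 lower, against 6.78% and 1.51% of other hosts. By transcript, 6 were higher and 1 lower, and the difference from other hosts was 0.035. In hosts with 1 transcript that difference was 0.056. Of 214 values of the 27 named hosts under alternatives, 205 kept their direction and their side of 2-fold. In 3 hosts near 0 the sign changed, 5 times in all: Arid3a was -0.24 centred, -0.42 as a mean over its transcripts and -0.30 by summed FPKM, Crebbp was -0.061 centred, and Kdm5b was 0.066 by summed FPKM. The sources give no depth, and most 2-fold transcripts were short or low.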

Other observations

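At the same 51 genes the assembly also held 6 transcripts of other classes, which overlap exons of the host. The CIA level was the higher in all 6 (median log2 ratio 0.75), and 2 were at least 2-fold higher. The shares over all transcripts of these classes are not given here, so these counts have no background beside them. On the strand opposite to Arid1a, a transcript of 3 exons and 3425 bases stood at 9.08 FPKM in CIA spleen against 1.46 FPKM in healthy spleen (2.56). An isoform of Hdac7 that shares a splice junction with the annotated gene stood at 4.70 against 0.956 FPKM (2.19). The other 4 belonged to Arid5b (0.73), Smarcc2 (0.76), Ncor1 (0.52) and Arid2 (0.28). Summed levels over overlapping transcripts were not formed across classes, so reads shared with the intronic transcripts of Arid1a and Hdac7 were not separated.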
